A study of Mus musculus with 9 samples.

Results

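The heat shock proteins and their DnaJ partners are the cell's main folding machinery, and their RNA was followed here in the gastrocnemius, a calf muscle made mostly of fast fibres. The members were chosen by name: every gene of the deposited table whose symbol starts with Hspa, Hspb, Hspd, Hspe, Hsph, Hsp9 or Dnaja, Dnajb or Dnajc with a number, plus Cryab, without entries marked as pseudogenes. Symbols that start with Hspb brought in Hspbp1 and Hspbap1, which bind heat shock proteins. That gave 66 of the 13179 genes in the table, and all 66 were among the 13137 genes tested. They comprised 8 small heat shock protein genes, 14 of the HSP70 and HSP110 family, 3 of the HSP90 family, 2 chaperonins, 2 genes of heat shock protein binding proteins and 37 DnaJ genes (4 Dnaja, 9 Dnajb, 24 Dnajc). Hspb11 was counted among the small heat shock protein genes by its name only.

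HSP70 proteins bind unfolded stretches of other proteins and let go of them in cycles driven by ATP. A DnaJ protein (J protein) brings the client and speeds up ATP hydrolysis through its J domain, and exchange factors such as the HSP110 proteins reset the cycle. HSP90 finishes the folding of kinases and receptors, the chaperonin of mitochondria folds proteins inside a closed chamber, and small heat shock proteins hold unfolded proteins without using ATP. In muscle, several small heat shock proteins sit at the Z-disc, and some of them, HSPB1 first of all, are phosphorylated by kinases that p38 activates.

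Polyadenylated RNA was sequenced from mice that had eaten a high-fat diet (HFD) for 6 weeks, in 9 libraries, 3 in each of 3 groups. The groups carry the genotype labels control, p38alphaMCK-KO (written p38α KO here) and p38alpha/gammaMCK-KO (p38α/γ KO). All groups share the diet. MCK is the usual short name of the muscle creatine kinase promoter, which drives deletion in muscle fibres and leaves the kinases in the other cells of the muscle. The labels used here give no age, sex or strain, and do not say that the libraries of a group came from separate animals, so p-values reflect only how these libraries spread, which may be technical. Values are the authors' normalised counts, and a change is a difference in log2(value + 1) with its SE from limma over all 9 libraries, which understates the change of low genes. A gene was called when its Benjamini-Hochberg adjusted p over all 13137 genes was below 0.05. Only such genes are said to rise or fall.

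The depth read from the values was 23.8 to 27.9 M reads a library. Mapk14, which encodes p38α, measured 142.7 to 156.7 in the controls, 40.3 to 45.5 in the p38α KO and 37.0 to 54.7 in the p38α/γ KO. Mapk12, which encodes p38γ, measured 137.9 to 152.2, 96.5 to 105.1 and 31.2 to 35.5 in the same order. The 7 markers of skeletal muscle fibres, Acta1 and Ckm together with 5 genes of fast fibres, summed to 138350 to 151977 in the controls, 82923 to 120408 in the p38α KO and 102139 to 105707 in the p38α/γ KO. Of them, Acta1 and Tnnc2 were called lower in the p38α KO, and none was called by limma in the p38α/γ KO, where 4 had an unadjusted p below 0.05. Macrophage markers moved with the genotype: 8 of 10 were called higher in the p38α KO and 9 of 10 in the p38α/γ KO. None of them was at 0 in any library, and their sums were 124.0 to 169.4 in the controls, 238.3 to 529.2 in the p38α KO and 311.6 to 508.5 in the p38α/γ KO. Of 6 markers of fibro-adipogenic progenitors, 1 and 4 were called higher in the 2 knockouts, with sums of 810.4 to 1042, 852.8 to 1810 and 1320 to 1792 in the 3 groups. The part of either cell type in the chaperone results was not tested. In bulk muscle, fewer cells of a type and less RNA per cell cannot be told apart. One library, p38α KO 1, was unlike the rest of its group: across genes it correlated with p38α KO 3 at 0.960, where all other pairs within a group gave 0.976 to 0.993. Within its group it had the lowest sum of muscle fibre markers (82923) and the highest sums of macrophage (529.2) and progenitor (1810) markers.

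Against control, 1 chaperone gene rose and 8 fell in the p38α KO, and 5 rose and 11 fell in the p38α/γ KO. Over all tested genes, 7.32% were called higher and 10.4% lower in the p38α KO, and 11.2% and 14.4% in the p38α/γ KO. The shares of the 66 chaperones were 1.52% and 12.1%, and 7.58% and 16.7%. Their median changes were −0.01 (p38α KO) and −0.004 (p38α/γ KO), beside 0.01 and 0.02 for all genes. Between the knockouts no chaperone gene was called by limma in either direction, while 11 of 66 had an unadjusted p below 0.05. Of all genes, 0.122% were called higher and 0.32% lower in the p38α KO than in the p38α/γ KO. Knockout and control libraries were fully apart for 21 of the 66 chaperones in the p38α KO (9 higher, 12 lower) and for 37 in the p38α/γ KO (17 higher, 20 lower), where the shares of all genes were 38.6% and 55%. Without library 1 of the p38α KO, the counts were 1 higher and 10 lower in the p38α KO and 9 higher and 18 lower in the p38α/γ KO. Leaving out other libraries cut the p38α/γ KO counts, to 0 higher and 2 lower without p38α/γ KO 2, to 1 and 4 without p38α/γ KO 3, and to 1 and 3, 2 and 5, and 1 and 4 without control 1, 2 and 3. In the p38α KO the counts were 0 and 4 without control 1, and 6 and 10 without p38α KO 3. With the replicate number as a block, the p38α/γ KO had 3 chaperones higher and 8 lower. With quantile normalisation the counts were 3 higher and 8 lower in the p38α KO, and 6 and 8 in the p38α/γ KO. The shares of all genes called in these other fits are not given, so the shifts in count may not be particular to chaperones.

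**Figure D1:**
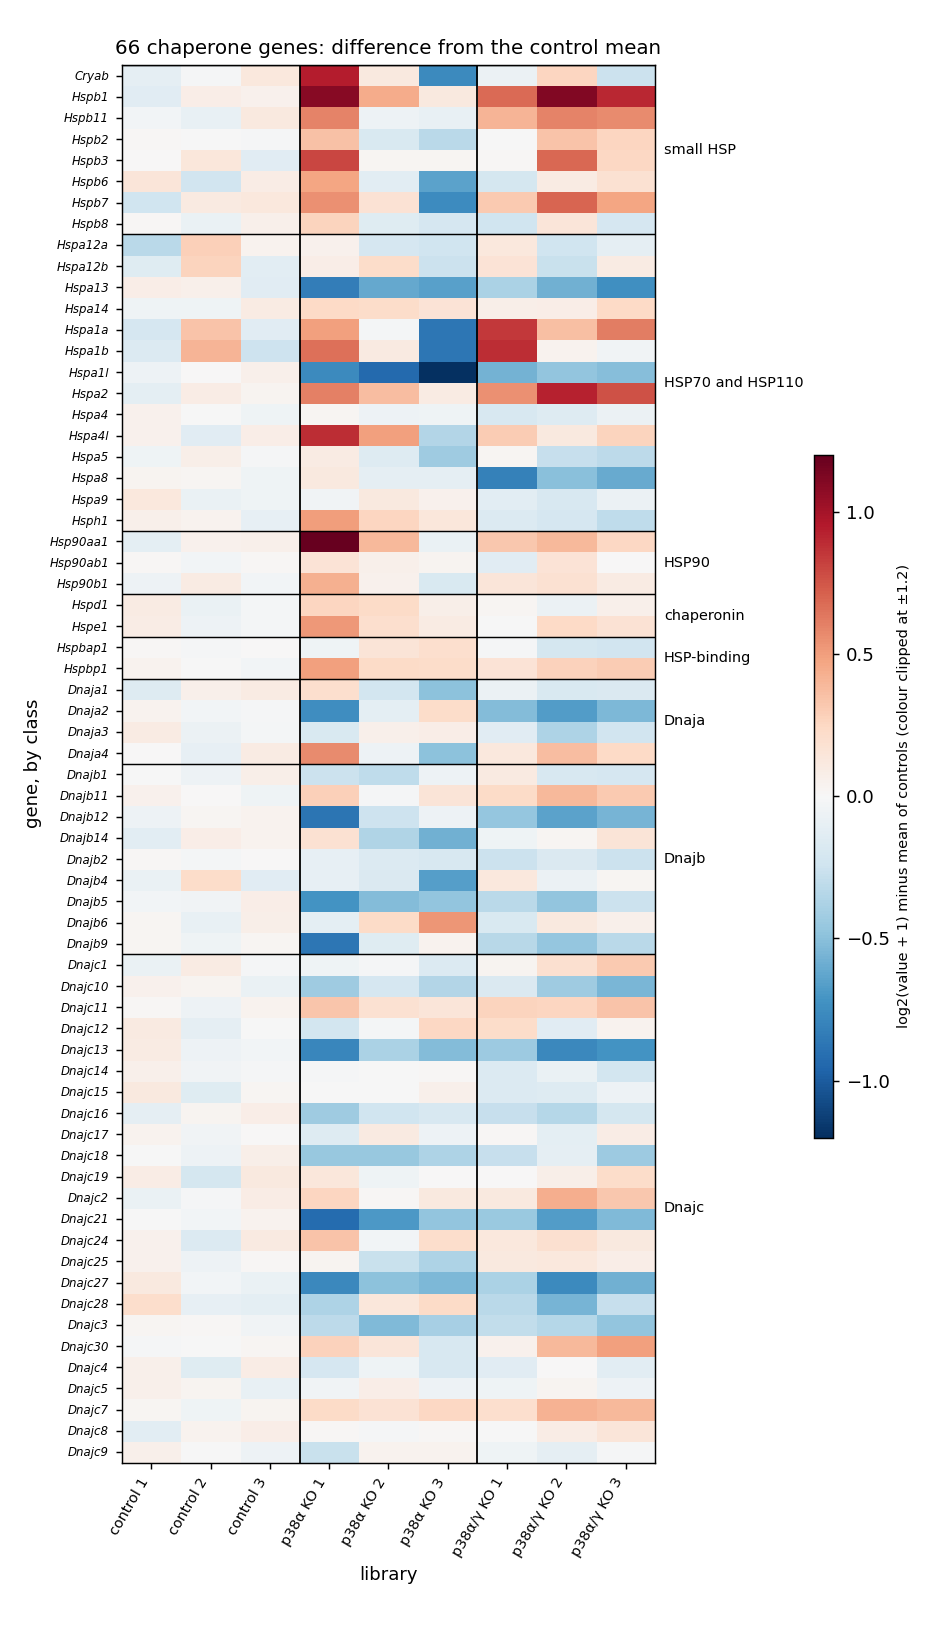
Difference of each library from the mean of the 3 controls in log2(value + 1), with 1 row for each of the 66 chaperone genes, grouped by class, and 1 column for each of the 9 libraries. Red is higher and blue lower, and the small heat shock protein rows are all reddest in p38α KO 1 within their group while the rows of Hspa13, Dnajb5, Dnajc13, Dnajc21 and Dnajc27 are blue in all 6 knockout libraries.

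The 18 chaperones called in at least 1 knockout fall into 3 sets. Dnajb5, Dnajc3, Dnajc13, Dnajc21, Dnajc27, Hspa13 and Hspa1l were called lower in both knockouts, in comparisons that share the same 3 control libraries. Hspbp1 (higher) and Dnajc18 (lower) were called in the p38α KO. Hspb1, Hspa2, Dnajb11, Dnajc7 and Dnajc11 (higher) and Hspa8, Dnajb2, Dnajb12 and Dnajc10 (lower) were called in the p38α/γ KO. None of the differences between the 2 knockouts passed for these genes, so a call in 1 knockout is not shown to be particular to it.

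**Figure D2:**
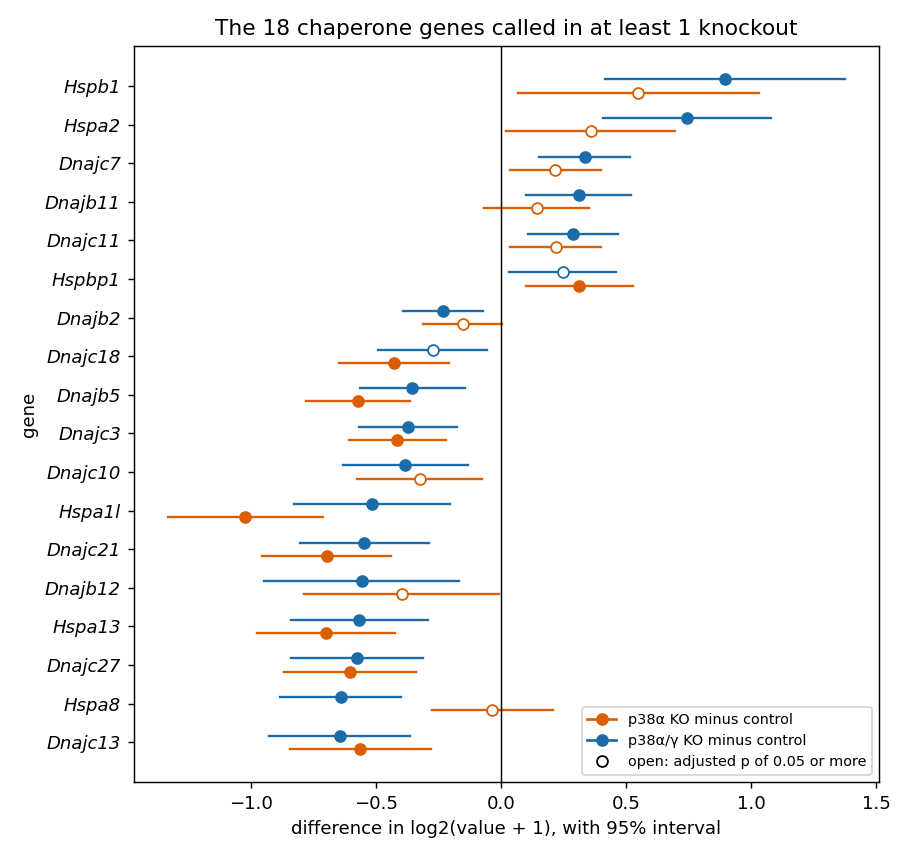
Change against control in log2(value + 1), with its 95% interval, for the 18 chaperone genes called in at least 1 knockout (orange p38α KO, blue p38α/γ KO, filled where the adjusted p is below 0.05). The intervals of the 2 knockouts overlap for each gene except Hspa8, which lies near 0 in the p38α KO and at −0.64 in the p38α/γ KO.

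Short stretches of promoter are shown first, with exact matches to the elements of the 2 best known folding-stress responses. The heat shock element, bound by heat shock factor, was searched as GAA, 2 bases of any kind, TTC, 2 bases and GAA, or as TTC, 2 bases, GAA, 2 bases and TTC. The ER stress element, bound by ATF6 together with NF-Y, was searched as CCAAT, 9 bases of any kind and CCACG. Both were read on either strand, in the window from 250 bases before to 50 bases after each RefSeq start (GRCm38.p6). The table of windows held 53 of the 66 members. Cryab, Hspa8, Hsp90aa1 and Hsp90ab1 were among the 13 without a window. A member without an exact match in its window may still carry an element. A heat shock element was found in 4 of the 53 (7.55%: Dnajb6, Hspd1, Hspe1 and Hsph1), against 0.662% of all 27025 genes with a window. The ER stress element was found in 3 of the 53 (5.66%: Hspa5, Hsp90b1 and Dnajc3), against 0.137% of all genes. A match is a description of the letters, not a bound site. Capitals mark the elements, and each stretch is written 5′ to 3′ on the strand of its gene.
Hspe1, heat shock elements that overlap, chr1:55088053-55088082, plus strand: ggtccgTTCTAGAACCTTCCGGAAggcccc
Dnajb6, heat shock element, chr5:29735844-29735872, plus strand: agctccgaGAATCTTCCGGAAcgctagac
Hsph1, heat shock element, chr5:149636280-149636308, minus strand: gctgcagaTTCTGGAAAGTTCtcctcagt
Hspa5, ER stress element, chr2:34772020-34772048, plus strand: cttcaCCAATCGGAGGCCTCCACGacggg
Dnajc3, ER stress element, chr14:118937787-118937885, plus strand: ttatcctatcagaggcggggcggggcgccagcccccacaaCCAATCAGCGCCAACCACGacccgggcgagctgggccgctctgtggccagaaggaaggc
Hsp90b1, ER stress elements in both directions, chr10:86705523-86705666, minus strand: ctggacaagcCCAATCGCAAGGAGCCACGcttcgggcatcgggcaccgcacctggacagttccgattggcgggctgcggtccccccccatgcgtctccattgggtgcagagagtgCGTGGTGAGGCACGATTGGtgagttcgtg

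The stretch of Hspe1 lies from −95 to −66 relative to its start and is shared with Hspd1, whose gene starts nearby on the other strand. That of Hsph1 lies after the start, from base 7 to 35. None of the 4 genes with a heat shock element was called against control in either knockout, where 17.8% (p38α KO) and 25.6% (p38α/γ KO) of all genes were. So few genes cannot show a difference from these shares. Of the 3 with an ER stress element, Dnajc3 fell in both knockouts, while Hspa5 and Hsp90b1 were not called in either.

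HSPB1 (also HSP25) is the small heat shock protein best known as the end of the p38 and MK2 kinase cascade. Hspb1 measured 124, 144 and 141 in control muscle, 291, 185 and 147 in the p38α KO and 218, 296 and 255 in the p38α/γ KO. Every library of either knockout was above every control, with the p38α KO libraries spread most widely. Hspb1 rose in the p38α/γ KO (log2 0.90, SE 0.215, 1.86-fold, limma adjusted p = 0.0183), and its change in the p38α KO, 0.55 on the log2 scale, did not pass (adjusted p = 0.104). Leaving out control 1 or 3 or p38α/γ KO 2 or 3 (adjusted p from 0.0559 to 0.0784) ended the call. Of the 51-base stretches of the Hspb1 transcripts, 48.7% are also found in the pseudogene Hsp25-ps1, which has no row in the table.

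Cryab (αB-crystallin), which binds desmin and titin, was among the most abundant chaperones and did not pass in any comparison. Cryab measured 556, 596 and 655 in control muscle, 1159, 653 and 354 in the p38α KO and 573, 719.8 and 504 in the p38α/γ KO. The p38α KO libraries lay on both sides of all controls, from far above to far below. The p38α/γ KO libraries overlapped the controls (log2 −0.02, 95% interval −0.78 to 0.74, limma adjusted p = 0.967). Hspb6 (HSP20) is a muscle small heat shock protein that measured 822, 633 and 789 in control muscle, 1034, 679 and 476 in the p38α KO and 640.4, 794 and 843 in the p38α/γ KO. It too ran from above the controls to below them within the p38α KO. Hspb7, a small heat shock protein of heart and skeletal muscle that binds filamin C, measured 328, 419 and 422 in control muscle, 566, 438 and 229 in the p38α KO and 482, 629.8 and 539 in the p38α/γ KO. All 3 p38α/γ KO libraries lay above the controls, but the change of 0.50 had a 95% interval of −0.12 to 1.12 and did not pass (limma adjusted p = 0.202). Under the alternative fits this limma adjusted p ran from 0.00215 to 0.426, so some of them called it. Hspb8, which works with Bag3 in the disposal of damaged Z-disc proteins, measured 402, 377 and 414 in control muscle, 477, 358 and 345 in the p38α KO and 337, 439 and 346 in the p38α/γ KO, and its groups overlapped.

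All 8 small heat shock protein genes were highest in p38α KO 1 and lowest in p38α KO 3. Over all tested genes, 5661 of 13137 were highest in p38α KO 1 within that group and 4972 lowest in p38α KO 3. Genes with both were not counted. The highest library of the p38α KO exceeded the lowest by a median of 1.90 times for the small heat shock proteins (range 1.38 to 3.27), against 1.31 for all 66 chaperones and 1.36 for all genes. In the controls the same ratio was 1.19 for the small heat shock proteins. The 3 HSP90 genes and both chaperonins had the same order, as did most HSP70 and HSP110 genes: 11 of 14 were highest in p38α KO 1 and 10 lowest in p38α KO 3. The 9 markers of slow fibres, which are rich in small heat shock proteins, summed to 2429, 1676 and 614.8 in p38α KO 1, 2 and 3. They summed to 1793, 2171 and 1106 in the controls. Of the 8 small heat shock protein genes, 2, 2 and 4 were highest in control 1, 2 and 3, and 3, 3 and 2 were lowest there. In p38α/γ KO 1, 2 and 3 the slow fibre markers summed to 1773, 1717 and 2426. Of the 8 genes, 0, 7 and 1 were highest in these libraries, and 7, 0 and 1 were lowest. The progenitor markers summed to 1810, 1003 and 852.8 in p38α KO 1, 2 and 3. Their sums were 1320, 1792 and 1348 in the p38α/γ KO and 862.4, 1042 and 810.4 in the controls. The part of slow fibres or progenitors in the spread of the small heat shock proteins was not tested.

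**Figure D3:**
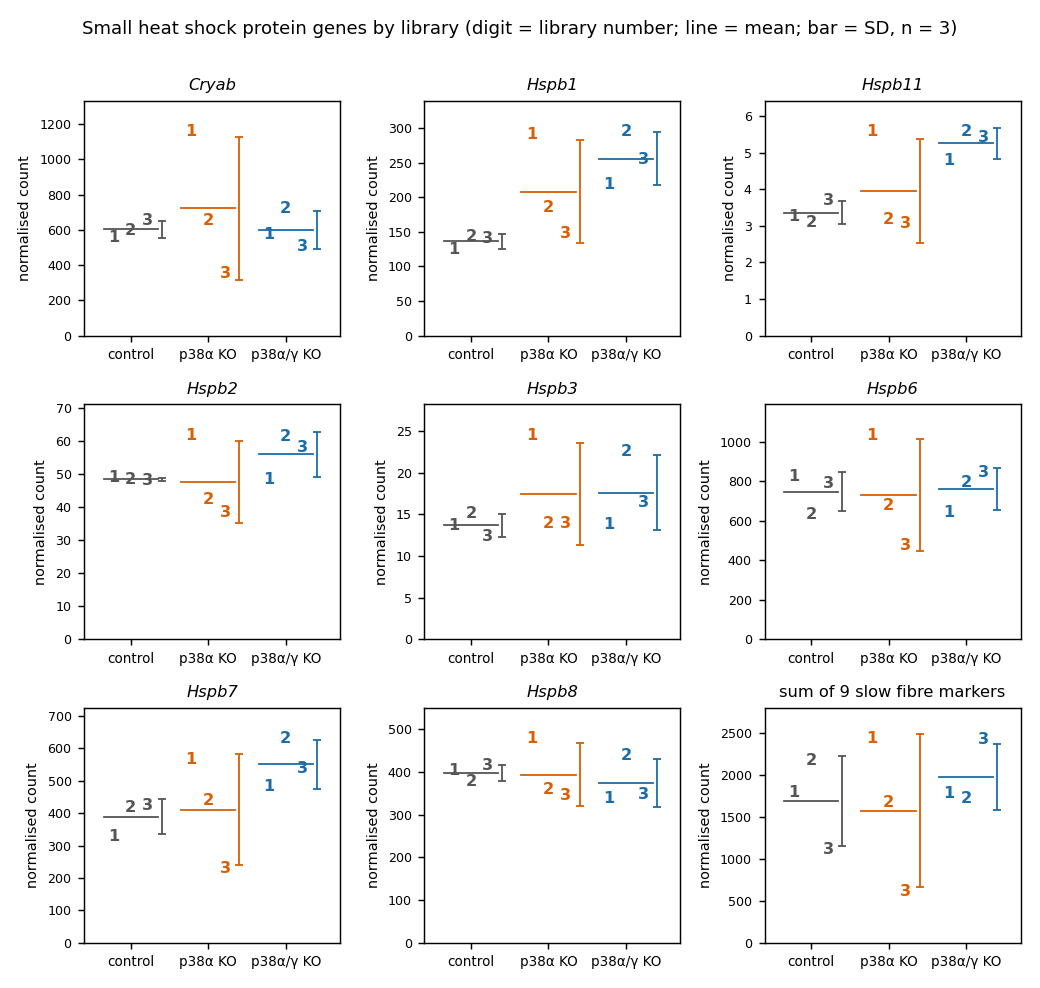
Normalised counts of the 8 small heat shock protein genes and the summed value of 9 slow fibre markers in each library (digits are library numbers, lines are means, bars are SD, n = 3). In each chaperone panel p38α KO 1 is the highest and p38α KO 3 the lowest of its group, and only for Hspb1 do all 6 knockout libraries lie above all controls.

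Hspa8 (HSC70) encodes the constitutive HSP70 of the cytosol and was the most abundant gene of its family. Hspa8 measured 1319, 1312 and 1248 in control muscle, 1399, 1199 and 1202 in the p38α KO and 738, 910.4 and 848 in the p38α/γ KO. The p38α/γ KO libraries lay below all 6 others, while the p38α KO overlapped the controls. The fall in the p38α/γ KO was 1.56-fold (log2 −0.64, SE 0.108, limma adjusted p = 0.00601). The difference between the knockouts, 0.61, had a limma adjusted p of 0.0517.

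A processed pseudogene of Hspa8, Gm15459 (chr5:5781615-5783555, GRCm38), moved in the opposite direction in the same libraries. It shares 34.4% of the 51-base stretches of Hspa8, the length of the reads here. Gm15459 had 0 reads, read back from the values, in every control and in p38α KO 1 and 2, and 1 read in p38α KO 3. In the p38α/γ KO it had 10366, 3941 and 4826 reads, or values of 363.1, 137.7 and 197.7, at least 907-fold higher than the controls with a floor of 3 reads per library. It thus held 33.0%, 13.1% and 18.9% of the summed Hspa8 and Gm15459 values in the p38α/γ KO. The sum was 1319, 1312 and 1248 in control muscle, 1399, 1199 and 1202 in the p38α KO and 1101, 1048 and 1045 in the p38α/γ KO. On the sum, a comparison chosen after seeing the data, the p38α/γ KO still lay below all controls, but the change shrank to −0.28 and was no longer called (limma adjusted p = 0.0543). The difference between the knockouts on the sum was 0.25 (limma adjusted p = 0.338). Reads of the gene and of its copy cannot be told apart where the sequences are shared, so the size of the fall of Hspa8 is uncertain.

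**Figure D4:**
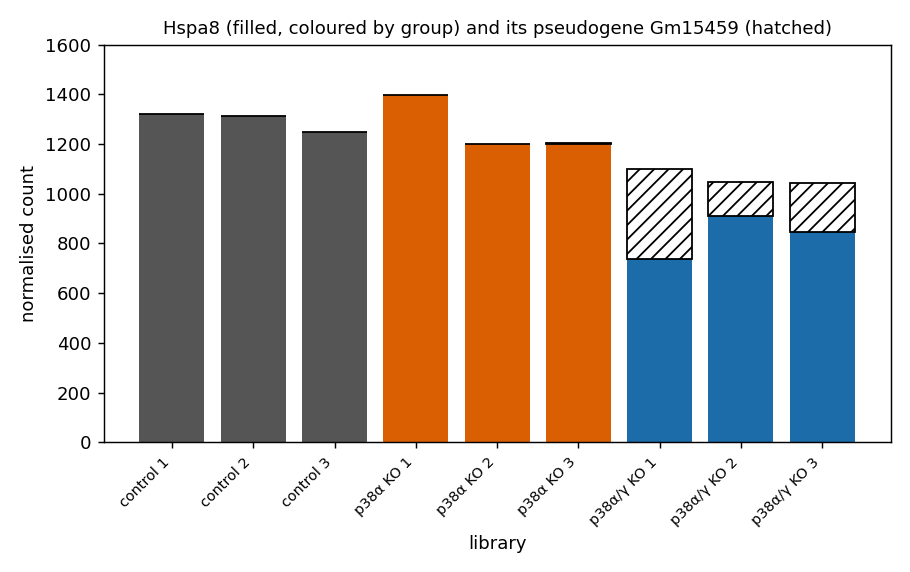
Normalised counts of Hspa8 (filled, coloured by group) with those of its pseudogene Gm15459 stacked on top (hatched) in each of the 9 libraries. The hatched part is visible only in the p38α/γ KO, where the stacked bars reach 1101, 1048 and 1045 and the filled parts 738.3, 910.4 and 847.5.

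Hspa1l, an HSP70 gene known mainly from testis, fell in both knockouts. Hspa1l measured 30.2, 31.7 and 33.1 in control muscle, 18.3, 16.1 and 11.6 in the p38α KO and 21.03, 22.6 and 21.9 in the p38α/γ KO. The 3 groups did not overlap, with the p38α KO lowest. The fall was 2.03-fold in the p38α KO (log2 −1.02, SE 0.139, limma adjusted p = 0.00267), the largest change of any chaperone there, and 1.43-fold in the p38α/γ KO (log2 −0.52, adjusted p = 0.027). In the p38α KO the call held in all 9 fits that left out 1 library, whereas in the p38α/γ KO leaving out any control or any p38α/γ KO library (adjusted p from 0.0622 to 0.0884) ended it. The antisense gene Gm10501 overlaps 71.9% of the exon bases of Hspa1l on the opposite strand, and the library kit marks strand, but how the counting used it is not given in the sources used here. Hspa1l lies at chr17:34972703-34979285 (GRCm38), next to Hspa1a and Hspa1b and on the chromosome of Mapk14 (28691329 to 28748406).

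Hspa1a and Hspa1b encode the same stress-inducible HSP70. Hspa1a measured 6.83, 10.4 and 7.17 in control muscle, 11.6, 7.83 and 3.93 in the p38α KO and 15.2, 10.5 and 12.8 in the p38α/γ KO. The p38α/γ KO libraries lay above the controls, without a call (log2 0.61, 95% interval −0.07 to 1.28, limma adjusted p = 0.155). Hspa1b measured 6.22, 9.74 and 5.83 in control muscle, 11.8, 7.70 and 3.43 in the p38α KO and 13.9, 7.32 and 6.86 in the p38α/γ KO, and its groups overlapped. Since the 2 genes share about 60% of their 51-base stretches (58.6% and 62.0%), they were also summed, which gave 0.50 in the p38α/γ KO (limma adjusted p = 0.302) and −0.10 in the p38α KO (adjusted p = 0.867). Hspa2, another HSP70 gene best known from testis, measured 5.20, 6.14 and 5.87 in control muscle, 9.24, 7.70 and 6.21 in the p38α KO and 8.81, 11.8 and 10.4 in the p38α/γ KO. Its knockout libraries all lay above the controls. Hspa2 rose 1.68-fold in the p38α/γ KO (log2 0.74, SE 0.151, limma adjusted p = 0.0108), a call that ended without p38α/γ KO 2 (adjusted p = 0.052), and its change in the p38α KO was 0.36 (adjusted p = 0.124).

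Hspa13 encodes an HSP70-related ATPase of the endoplasmic reticulum (ER) without the usual client-binding part. Hspa13 measured 12.2, 11.99 and 10.4 in control muscle, 6.02, 7.14 and 6.95 in the p38α KO and 8.60, 7.35 and 6.49 in the p38α/γ KO. All 6 knockout libraries lay below the controls. It fell 1.62-fold in the p38α KO (log2 −0.70, SE 0.123, limma adjusted p = 0.00701) and 1.48-fold in the p38α/γ KO (log2 −0.57, adjusted p = 0.0138). Leaving out control 1 or p38α/γ KO 2 or 3 (adjusted p from 0.0553 to 0.0569) ended the call in the p38α/γ KO. Hspa5 (BiP), the main HSP70 of the ER lumen, measured 159, 173 and 163 in control muscle, 177, 148 and 123 in the p38α KO and 167, 136 and 133 in the p38α/γ KO and was not called in either (limma adjusted p = 0.442 and 0.316). Hspa9 (mortalin), the HSP70 of mitochondria, measured 600.0, 520.2 and 528 in control muscle, 534, 595 and 569 in the p38α KO and 502, 480.5 and 521 in the p38α/γ KO, and the libraries of either knockout overlapped the controls.

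Hsph1 (HSP110) is an exchange factor that resets HSP70. Hsph1 measured 85.4, 84.6 and 76.5 in control muscle, 117, 98.2 and 90.2 in the p38α KO and 72.9, 71.2 and 66.1 in the p38α/γ KO. The p38α KO lay above and the p38α/γ KO below all controls, so the 3 groups did not overlap. Neither change against control passed (log2 0.30, limma adjusted p = 0.0754, and log2 −0.23, adjusted p = 0.129). The difference between the knockouts was 0.52 (95% interval 0.29 to 0.76, limma adjusted p = 0.0692), which became a call without p38α KO 1 or without p38α KO 3. The 5 other genes of the HSP70 and HSP110 family, Hspa4, Hspa4l, Hspa12a, Hspa12b and Hspa14, were not called in any comparison.

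Hspbp1 binds HSP70 and promotes the release of its nucleotide. Hspbp1 measured 20.4, 19.8 and 19.4 in control muscle, 28.2, 23.5 and 23.3 in the p38α KO and 22.4, 24.3 and 24.7 in the p38α/γ KO. Both knockouts lay above the controls. It was the 1 chaperone called higher in the p38α KO (1.24-fold, log2 0.31, SE 0.0964, limma adjusted p = 0.0498), beside a change of 0.25 in the p38α/γ KO (adjusted p = 0.0841). The call lay at the edge of the threshold: leaving out any control, p38α KO 1 or 2 or any p38α/γ KO library (adjusted p from 0.0607 to 0.151) ended it, as did a pseudocount of 5, quantile normalisation, a fit without the trend, the replicate block, a fit of only the 6 libraries compared or voom weights on the reads read back (adjusted p from 0.0522 to 0.0985).

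HSP90 and chaperonin genes were not called by limma in any comparison, and 1 of these 5 genes, Hspe1 in the p38α KO, had an unadjusted p below 0.05. Hsp90ab1, the constitutive cytosolic HSP90, measured 1430.2, 1387 and 1434 in control muscle, 1583, 1483 and 1454 in the p38α KO and 1290.2, 1589.9 and 1420.0 in the p38α/γ KO, with a highest to lowest ratio of at most 1.23 in any group. Hsp90aa1, the inducible form, which also chaperones myosin in muscle, measured 60.7, 68.4 and 68.6 in control muscle, 153, 86.5 and 62.3 in the p38α KO and 82.7, 86.6 and 78.5 in the p38α/γ KO. Library 1 of the p38α KO held the highest Hsp90aa1 value of all, and the p38α/γ KO libraries lay above the controls (log2 0.32, 95% interval −0.24 to 0.89, limma adjusted p = 0.353). Under the alternative fits this limma adjusted p ran from 0.00828 to 0.551, so some of them called it. Hsp90b1 (GRP94), the HSP90 of the ER, measured 129, 145 and 132 in control muscle, 182, 140.2 and 119 in the p38α KO and 149.9, 154 and 145 in the p38α/γ KO, with no call. Hspd1 (HSP60) and Hspe1 (HSP10) form the mitochondrial chaperonin and share the promoter element printed above. Hspd1 measured 277, 246 and 255 in control muscle, 311, 303 and 273 in the p38α KO and 264, 246 and 270.2 in the p38α/γ KO, and p38α KO 3 lay just below the highest control. Hspe1 measured 55.8, 50.1 and 51.6 in control muscle, 75.7, 60.4 and 56.3 in the p38α KO and 52.5, 62.1 and 59.2 in the p38α/γ KO, and lay above the controls in the p38α KO without a call (log2 0.27, limma adjusted p = 0.134). Of the 51-base stretches of Hsp90aa1 and Hspd1, 41.6% and 37.6% are shared with a pseudogene each, so their values are less certain.

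Among the DnaJ genes, as over all genes, more were called lower than higher. Of the 37, none rose by limma and 6 fell in the p38α KO, where 11 had an unadjusted p below 0.05, and 3 rose and 8 fell in the p38α/γ KO, with median changes of −0.07 and −0.09 beside 0.01 and 0.02 for all genes. The shares called lower were 16.2% and 21.6%, where all genes gave 10.4% and 14.4%, and the difference in share was not tested. Of the 29 heat shock protein genes, 1 rose and 2 fell in the p38α KO, and 2 rose and 3 fell in the p38α/γ KO, with medians of 0.09 and 0.02. Their shares were 3.45% higher and 6.90% lower, and 6.90% and 10.3%. All genes gave 7.32% and 10.4%, and 11.2% and 14.4%, and the difference was not tested.

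Dnajb5, a J protein of the cytosol, fell in both knockouts. Dnajb5 measured 207, 205 and 224 in control muscle, 129, 147 and 152 in the p38α KO and 169, 152 and 177 in the p38α/γ KO. Both knockouts lay below the controls. The p38α KO was lowest, but its highest library (152.28) almost reached the lowest p38α/γ KO library (152.32). The difference between the knockouts was −0.22 and was not called (limma adjusted p = 0.400). The fall was 1.49-fold in the p38α KO (log2 −0.57, SE 0.0938, limma adjusted p = 0.00554) and 1.28-fold in the p38α/γ KO (log2 −0.35, adjusted p = 0.0251). The first held in every fit that left out 1 library. Leaving out any control or p38α/γ KO 2 or 3 (adjusted p from 0.0543 to 0.103) ended the second.

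Dnajc21, a J protein that acts in ribosome assembly, had the largest fall of the DnaJ genes in the p38α KO. Dnajc21 measured 102, 99.9 and 106 in control muscle, 53.4, 63.1 and 73.6 in the p38α KO and 75.1, 64.1 and 70.8 in the p38α/γ KO, and every knockout library lay below every control. It fell 1.62-fold (log2 −0.70, SE 0.116, limma adjusted p = 0.0059) and 1.46-fold (log2 −0.55, adjusted p = 0.0124), the second call ending without control 3 or p38α/γ KO 2 (adjusted p = 0.0506 and 0.0584). Dnajc27, which joins a Rab-like GTPase to a J domain, measured 94.4, 85.02 and 82.3 in control muscle, 50.4, 61.7 and 59.6 in the p38α KO and 66.7, 50.8 and 57.9 in the p38α/γ KO. It fell 1.52-fold in the p38α KO (log2 −0.60, limma adjusted p = 0.0107) and 1.49-fold in the p38α/γ KO (log2 −0.58, adjusted p = 0.0115). The first call ended without control 1 (adjusted p = 0.0501) and the second without control 1 or p38α/γ KO 2 (adjusted p = 0.0507 and 0.0521).

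Dnajc13 (RME-8) acts on endosomes, where it regulates clathrin and sorting. Dnajc13 measured 36.1, 32.3 and 32.9 in control muscle, 19.2, 25.6 and 23.2 in the p38α KO and 24.6, 19.3 and 20.1 in the p38α/γ KO. Both knockouts lay wholly below the controls. It fell 1.48-fold in the p38α KO (log2 −0.56, limma adjusted p = 0.0173) and 1.56-fold in the p38α/γ KO (log2 −0.64, SE 0.126, adjusted p = 0.00964). The call in the p38α/γ KO held in all 9 fits that left out 1 library, and that in the p38α KO ended without control 1 or 3 (adjusted p = 0.0694 and 0.0583). Dnajc18 measured 30.97, 29.7 and 32.5 in control muscle, 22.4, 22.3 and 23.8 in the p38α KO and 25.5, 28.7 and 22.7 in the p38α/γ KO. Both knockouts lay below the controls. It fell 1.34-fold in the p38α KO (log2 −0.43, limma adjusted p = 0.0186), a call that ended without control 1 or 3 or p38α KO 2 (adjusted p from 0.0553 to 0.0785), and did not pass in the p38α/γ KO (log2 −0.27, adjusted p = 0.0665).

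J proteins of the ER moved in both directions. Dnajc3 (p58IPK), a partner of BiP in the ER lumen, measured 46.8, 46.3 and 44.7 in control muscle, 36.7, 31.6 and 34.6 in the p38α KO and 37.1, 36.1 and 32.7 in the p38α/γ KO. Every knockout library lay below the controls. It fell 1.33-fold (log2 −0.41, SE 0.0872, limma adjusted p = 0.0138) and 1.29-fold (log2 −0.37, adjusted p = 0.0171). Leaving out control 1 or 2 (adjusted p = 0.0578 and 0.0506) ended the first call, and leaving out any control or p38α/γ KO 2 or 3 (adjusted p from 0.0536 to 0.072) the second. Dnajc10 (ERdj5), which breaks disulfide bonds of misfolded proteins, measured 34.7, 34.3 and 31.7 in control muscle, 24.7, 29.1 and 26.2 in the p38α KO and 29.7, 24.8 and 22.5 in the p38α/γ KO. It lay below the controls in both knockouts and fell 1.3-fold in the p38α/γ KO (log2 −0.38, limma adjusted p = 0.0345, and 0.0545 with the replicate block). That call ended without any control or p38α/γ KO 2 or 3 (adjusted p from 0.0734 to 0.126). In the p38α KO its change was −0.32 (limma adjusted p = 0.0721).

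Dnajb11 (ERdj3), another partner of BiP, went up rather than down. Dnajb11 measured 38.01, 36.8 and 35.3 in control muscle, 44.9, 36.4 and 40.99 in the p38α KO and 43.2, 48.3 and 45.9 in the p38α/γ KO. The p38α KO overlapped the controls and the p38α/γ KO lay above them. Dnajb11 rose 1.24-fold in the p38α/γ KO (log2 0.31, limma adjusted p = 0.0382, and 0.0741 with the replicate block), a call that ended without any control or p38α/γ KO 2 or 3 (adjusted p from 0.0871 to 0.135). Dnajb12, a J protein of the ER membrane that acts in the removal of misfolded membrane proteins, measured 82.98, 87.7 and 88.8 in control muscle, 46.6, 72.6 and 82.8 in the p38α KO and 62.3, 55.1 and 58.3 in the p38α/γ KO. Both knockouts lay below the controls, and the fall was called in the p38α/γ KO (1.47-fold, log2 −0.56, limma adjusted p = 0.0432, and 0.0577 with the replicate block). It ended without any control, p38α KO 2 or any p38α/γ KO library (adjusted p from 0.0559 to 0.136). Dnajb9 (ERdj4), a repressor of the stress sensor IRE1, measured 51.2, 48.5 and 50.96 in control muscle, 27.1, 45.3 and 51.8 in the p38α KO and 39.7, 36.2 and 39.8 in the p38α/γ KO, with the p38α/γ KO below the controls and no call (log2 −0.37, limma adjusted p = 0.169). Under the alternative fits this limma adjusted p ran from 0.00327 to 0.350, so some of them called it.

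Over the 12 members of the ER, none rose by limma and 2 fell in the p38α KO (5 at an unadjusted p below 0.05), and 1 rose and 4 fell in the p38α/γ KO, with median changes of −0.27 and −0.23. For all genes the shares were 7.32% higher and 10.4% lower in the p38α KO, and 11.2% and 14.4% in the p38α/γ KO. The list of 13 other genes of ER folding and ER stress (calreticulin, calnexin and protein disulfide isomerases, and the stress factors Xbp1, Atf6 and Ddit3) had no call in either knockout by limma, with 1 and 4 genes at an unadjusted p below 0.05 and medians of 0.01 and 0.29. Over the 9 members of mitochondria, no gene was called in the p38α KO by limma (2 at an unadjusted p below 0.05) and 1 rose in the p38α/γ KO, with medians of 0.04 and 0.01. That gene was Dnajc11, which is tied to the complexes that shape the inner membrane. Dnajc11 measured 38.9, 36.9 and 39.6 in control muscle, 48.6, 43.8 and 42.7 in the p38α KO and 46.5, 46.05 and 49.2 in the p38α/γ KO. Both knockouts lay above the controls, and the rise in the p38α/γ KO was 1.22-fold (log2 0.29, limma adjusted p = 0.0304, and 0.0593 with the replicate block). Leaving out any control or any p38α/γ KO library (adjusted p from 0.0511 to 0.109) ended this call, and the change in the p38α KO was 0.22 (limma adjusted p = 0.0884).

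Dnajc7, which can hand clients between HSP70 and HSP90, measured 87.1, 82.6 and 87.6 in control muscle, 101, 96.6 and 102 in the p38α KO and 98.9, 114 and 113 in the p38α/γ KO. All knockout libraries lay above the controls. It rose 1.26-fold in the p38α/γ KO (log2 0.33, SE 0.0814, limma adjusted p = 0.0191), a call that ended without any control or p38α/γ KO 2 or 3 (adjusted p from 0.0594 to 0.082). Dnajb2, a J protein of neurons and muscle that binds ubiquitin, measured 75.8, 73.7 and 75.4 in control muscle, 70.02, 66.7 and 65.4 in the p38α KO and 62.5, 66.3 and 62.6 in the p38α/γ KO. Both knockouts lay below the controls. The fall of 1.17-fold in the p38α/γ KO (log2 −0.23, limma adjusted p = 0.0413, and 0.0859 with the replicate block) ended without any control, p38α KO 2 or any p38α/γ KO library (adjusted p from 0.0628 to 0.13), and also with quantile normalisation and without the trend (0.233 and 0.0675).

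The 5 general J proteins Dnaja1, Dnaja2, Dnajb1, Dnajb4 and Dnajb6 were not called by limma in any comparison, and 2 of them had an unadjusted p below 0.05 in 1 comparison each. Dnaja2, a main partner of HSC70, came closest: it measured 267, 253 and 256 in control muscle, 154, 239 and 302 in the p38α KO and 179.9, 162 and 178 in the p38α/γ KO. The p38α/γ KO lay below the controls (log2 −0.58, 95% interval −1.01 to −0.14, limma adjusted p = 0.0552), while the p38α KO ran from below to above them. Under the alternative fits the limma adjusted p of Dnaja2 in the p38α/γ KO ran from 0.000449 to 0.162, so some of them called it. Dnaja1 measured 31.7, 36.99 and 38.1 in control muscle, 40.98, 30.4 and 24.9 in the p38α KO and 33.7, 31.03 and 31.3 in the p38α/γ KO, and its groups overlapped. Dnajb1 (HSP40), the classic heat-induced J protein, was low in every library, at 6.95, 6.66 and 7.39 in control muscle, 5.69, 5.48 and 6.67 in the p38α KO and 7.62, 5.99 and 5.96 in the p38α/γ KO. Dnajb4 measured 59.7, 73.6 and 57.2 in control muscle, 58.7, 55.9 and 39.6 in the p38α KO and 69.2, 60.3 and 64.1 in the p38α/γ KO, with p38α KO 3 lowest. Dnajb6, a Z-disc J protein in which mutations cause a muscular dystrophy, measured 125, 116 and 129 in control muscle, 114, 145 and 178 in the p38α KO and 108, 134 and 128 in the p38α/γ KO. Its p38α KO libraries lay on both sides of the controls, with library 1 lowest and library 3 highest.

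The 28 members not yet given by library had control means of 2.41 to 135.9 and no call by limma in any comparison. In the p38α KO their changes ran from −0.29 (Dnajc16) to 0.34 (Hspa4l), with 2 at an unadjusted p below 0.05 and a lowest adjusted p of 0.0697. In the p38α/γ KO they ran from −0.38 (Dnajc28) to 0.52 (Hspb11), with 5 at an unadjusted p below 0.05 and a lowest limma adjusted p of 0.0582. These ends of the ranges were picked out after the values were seen. Hspb11, which despite its name encodes a protein of intraflagellar transport, measured 3.26, 3.10 and 3.71 in control muscle, 5.58, 3.17 and 3.08 in the p38α KO and 4.78, 5.57 and 5.43 in the p38α/γ KO. Its p38α/γ KO libraries lay above all controls. The remaining 16 Dnajc genes, which reach from mitochondrial import to RNA splicing in function, had control means of 2.41 to 49.0, and none was called.

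Between the knockouts, the number of chaperones called depended on library 1 of the p38α KO. Without it, 7 were higher in the p38α KO (Dnaja2, Dnaja3, Dnajb9, Dnajb12, Dnajc28, Hspa8 and Hsph1) and 9 lower (Hspb1, Hspb2, Hspb11, Hspa1a, Hspa1l, Hspa2, Dnaja4, Dnajb14 and Dnajc25). In that fit 7.77% and 6.54% of 13007 tested genes were called in the same directions. Among these 16 the largest differences were −1.05 for Hspa1a (limma adjusted p = 0.0263), −0.64 for Hspa1l (adjusted p = 0.0136), 0.63 for Dnaja2 (adjusted p = 0.00835) and −0.62 for Hspb1 (adjusted p = 0.0211). In the fit with all libraries these were −0.74, −0.51, 0.37 and −0.35, of which none passed (limma adjusted p from 0.188 to 0.553). Hspa8 was not summed with its pseudogene in that fit. Without p38α KO 3 instead, Hsph1 was the 1 gene called.

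**Figure D5:**
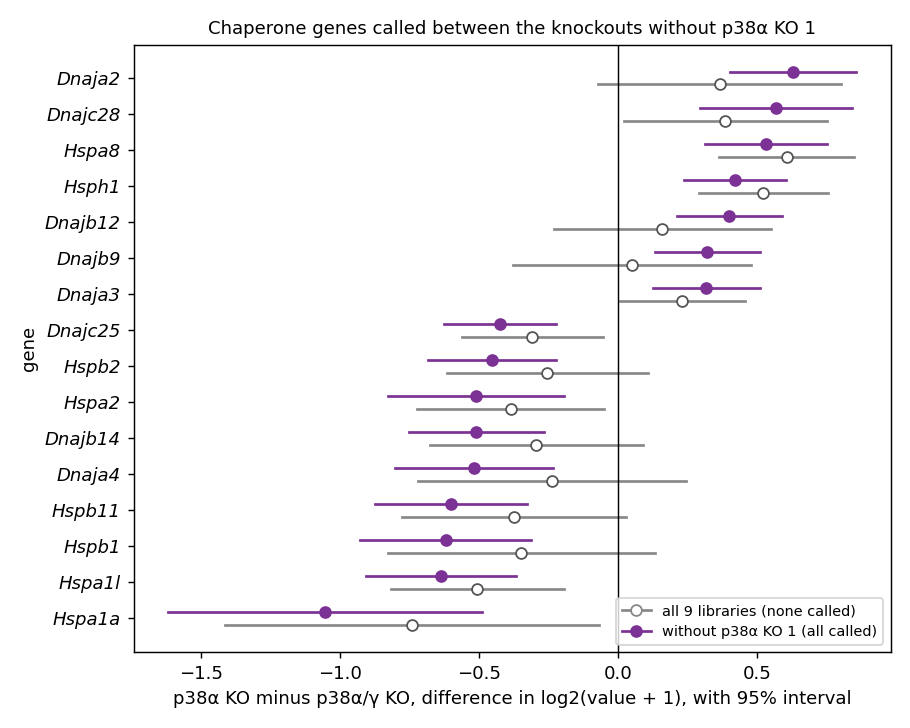
Difference between the knockouts in log2(value + 1), p38α KO minus p38α/γ KO, with its 95% interval, for the 16 chaperones called when p38α KO 1 is left out (purple), beside the fit with all 9 libraries (grey). Every point keeps its side of 0 in both fits, none of the grey points was called, and the purple intervals are narrower.

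Per kilobase of exon, the controls' most abundant chaperone was Hsp90ab1 at 473, followed by Cryab at 407, Hspb6 at 325, Hspa8 at 301 and Hspb8 at 204. Next came Hspb7 at 141, Hspb1 at 132, Hspa9 at 127 and Hspd1 at 98.1. Small heat shock proteins thus held 5 of the 7 highest levels, and the lowest was Hspbap1 at 0.428.

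Genes that work with the chaperones were followed through lists of partners. Of the 73 genes on them, 1 rose and 3 fell in the p38α KO, and 2 rose and 5 fell in the p38α/γ KO. These are 1.37% and 4.11%, and 2.74% and 6.85%, below the shares of all genes given above, a difference that was not tested. None of Hsf1, Hsf2, Hsf4 and Hsbp1, which encode 3 heat shock factors and a protein that binds them, was called by limma in either knockout (0 and 1 at an unadjusted p below 0.05). Neither was any of 10 genes listed as HSP70 exchange or BAG factors (1 and 2). Of 17 co-chaperones of HSP70 and HSP90, 1 fell in the p38α KO, and 1 rose and 4 fell in the p38α/γ KO. St13 (HIP), which steadies HSP70 on its client, measured 81.9, 84.3 and 80.9 in control muscle, 72.4, 66.9 and 63.8 in the p38α KO and 64.96, 64.8 and 61.5 in the p38α/γ KO, below the controls in both. It fell 1.21-fold and 1.29-fold (limma adjusted p = 0.0345 and 0.0122), and leaving out p38α KO 2 or 3 or p38α/γ KO 2 or 3 or any control (adjusted p up to 0.108) ended the first call and leaving out p38α/γ KO 3 (adjusted p = 0.0551) the second. The first also ended with quantile normalisation (0.226), without the trend (0.0554), in the fit of 6 libraries (0.079) and with the replicate block (limma adjusted p = 0.0646), and the second with quantile normalisation (0.0635). Cdc37, which brings kinases to HSP90, rose 1.37-fold in the p38α/γ KO, from 85.5, 83.95 and 87.4 to 125, 123 and 107 (limma adjusted p = 0.0112), a call ended by leaving out p38α/γ KO 2 (adjusted p = 0.0526). Chordc1, an HSP90 partner, fell 1.32-fold there, from 54.7, 49.4 and 57.1 to 41.3, 38.5 and 41.3 (limma adjusted p = 0.0119), ended by leaving out control 1 or 3 or p38α/γ KO 2 (adjusted p up to 0.0562).

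Unc45b, the chaperone that folds muscle myosin together with HSP90, fell 1.42-fold in the p38α/γ KO. It measured 339, 313 and 342 in control muscle, 237, 313 and 339 in the p38α KO and 242, 231 and 227 in the p38α/γ KO (log2 −0.50, limma adjusted p = 0.0198), a call ended by leaving out control 1 or 3 or p38α/γ KO 2 or 3 (adjusted p up to 0.0726). Pfdn2, a subunit of prefoldin, which delivers new actin and tubulin to the TRiC chaperonin, rose in both knockouts (1.29-fold and 1.32-fold, limma adjusted p = 0.0272 and 0.0174). The first call was ended by leaving out any control or p38α KO 2 (adjusted p up to 0.0916) and the second by leaving out control 1 or 2 or p38α/γ KO 2 or 3 (adjusted p up to 0.0737). Of the 3 kinases that link p38 to the small heat shock proteins, 2 fell in the p38α KO. In the p38α/γ KO none was called by limma, 2 lay wholly below the controls and 2 had an unadjusted p below 0.05. Of all genes, 10.4% were called lower in the p38α KO, and 55% had p38α/γ KO and control libraries fully apart. Mapkapk2 (MK2), which phosphorylates HSPB1, measured 319, 287 and 306 in control muscle, 248, 243 and 212 in the p38α KO and 276, 249 and 306 in the p38α/γ KO. It fell 1.3-fold in the p38α KO (limma adjusted p = 0.0326, and 0.331 in the p38α/γ KO). Mapkapk5 fell 1.25-fold in the p38α KO (limma adjusted p = 0.0214, and 0.0638 in the p38α/γ KO). Both calls ended with quantile normalisation, in the fit of 6 libraries and with the replicate block (limma adjusted p = 0.0623 and 0.051), that of Mapkapk2 also by leaving out any control or p38α KO 2 or 3 (adjusted p up to 0.115) and that of Mapkapk5 by leaving out control 1 or 3 or p38α KO 2 (adjusted p up to 0.0959).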

How the data were processed

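The 9 gastrocnemius libraries form 3 groups of 3. Per the labels' protocols, RNA had a RIN above 8, 100 ng went into a stranded kit, and single reads of 51 bases were made. Names in the submitters' processing notes are RSEM 1.3.1, CASAVA 1.8, limma, cutadapt and the build GRCm38, with neither roles nor annotation release. The deposited signal values are called normalised counts by the authors, and how they were scaled is not given in the sources used here. Each value was a whole number plus 0.5, times a constant of its library, from which depths and reads per gene were read back.

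The test was limma 3.58.1 (R 4.3.3) on log2(value + 1), with an empirical Bayes trend and all 9 libraries in 1 fit. Genes had to reach a value of 1 in 3 or more libraries, and p was adjusted by Benjamini-Hochberg in each of the 3 comparisons. The code was tested on simulated data. Fold changes are those of value + 1. GENCODE M21 matched 13172 gene identifiers and gave lengths, overlaps and shared 51-base stretches, and RefSeq gave the promoter windows. Figures were drawn with matplotlib 3.10.9.

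The members, classes and lists were chosen with earlier results of these data known. Named were all called members, 24 class representatives, and at most 3 called genes of each partner list. Libraries of the p38α/γ KO and the control that carry the same number had weakly correlated deviations from their group means (0.11, 0.12 and 0.15), so blocked values are given where they change a call. That pairing comes from the values, not from the labels. Same-numbered pairs of the p38α KO and the control gave −0.086, −0.087 and 0.095, and those of the 2 knockouts −0.331, −0.228 and 0.089. Correlations of pairs with different numbers were not computed, so these values do not show that the libraries are paired. Alternatives changed the filter, pseudocount, scaling, trend, weights, libraries and block.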

Additional observations from a re-analysis of the deposited data

How the results depend on the processing

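The number of chaperones called depended mostly on which libraries were in the fit. For most of these fits the share of all genes called is not given, so the shifts may not be particular to chaperones. In the p38α KO the main count of 1 higher became 0 with a pseudocount of 5, without the trend, with the replicate block, in a fit of only the 6 libraries compared or with voom weights, and 3 with quantile normalisation. Leaving out 1 library gave 0 to 6 higher and 4 to 10 lower. In the p38α/γ KO the main counts were 5 higher and 11 lower. The replicate block in all 9 libraries gave 3 higher and 8 lower. Only the 6 libraries compared gave 12 higher and 18 lower, and the same with the replicate block, chosen after seeing the data, gave 12 and 17. Leaving out 1 library gave 0 to 9 higher and 2 to 18 lower, with the lowest counts without p38α/γ KO 2 and the highest without p38α KO 1. Between the knockouts, leaving out 1 library gave 0 to 7 higher and 0 to 9 lower. The other alternatives kept these counts within 1.5 times.

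For the 38 named members, 2318 values under alternatives were compared with 114 results: 2177 stayed on the same side of the threshold in the same direction or were not called in either, 97 lost the call and 44 gained one. Calls gained in the p38α/γ KO included those of Dnaja2, Hspb7, Dnajb9 and Hsp90aa1. No called value changed sign. All sign changes, 66, were of values not called in either fit. Of the 9 calls in the p38α KO, 4 held in every fit that left out 1 library, and of the 16 in the p38α/γ KO, 2 did. The negative binomial count model listed as an alternative was not run. In its place, chosen after seeing the data, limma's voom weights were applied to the reads read back from the values: this gave 0 chaperones higher and 8 lower for the p38α KO, 5 and 11 for the p38α/γ KO and 0 between the knockouts, and of the named members the call of Hspbp1 was lost (adjusted p = 0.0533). Of all 13137 tested genes, voom weights called 789 higher and 1307 lower in the p38α KO, and 1332 and 1807 in the p38α/γ KO. Between the knockouts the counts over all genes were 14 and 37. Protein sequences were not analysed here. The 3 libraries a group, of which 1 stood apart, limit the size of change that can be called, and genes that share sequence with copies are less certain.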
